A study of Mus musculus with 15 samples.

Results

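The genes described here are the epidermal growth factor (EGF) receptor family and its ligands: the receptors Egfr, Erbb2 and Erbb3 and the ligands Egf, Tgfa, Areg, Ereg, Hbegf, Btc and Nrg1. The 10 genes were chosen by name from the 36144 genes of the count table, and all 10 were among the 16224 genes tested. RNA was sequenced in bulk from 15 stomach samples of C57BL/6 mice aged 7 to 8 weeks, as 5 groups of 3. The groups were tumors of the antrum, of the greater curvature and of the lesser curvature of the cardia, tumors of the corpus, and normal stomach tissue. Every group, normal tissue included, carries the same label of genotype and treatment: the driver Pou2f3-CreERT, the floxed alleles Rb1fl/fl and Trp53fl/fl, and the allele LSL-MycT58A, with tamoxifen at 50 mg/kg and collection 5 weeks later. Cre is therefore driven by Pou2f3, the factor that specifies tuft cells, and is meant to switch on a stabilised Myc and remove Rb1 and Trp53 there. The region of the stomach that gave the normal tissue is not stated, and the labels call the replicates biological without naming separate animals. The p-values therefore reflect the spread of these samples and no more.

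The EGF receptor family consists of membrane receptor tyrosine kinases that pair up when a ligand binds. Erbb2 has no known ligand and acts as the preferred partner of the others, and Erbb3 has little kinase activity of its own and recruits PI3 kinase. The ligands are made as membrane-anchored precursors and are cut loose by ADAM proteases. In the stomach Tgfa is known for restraining acid secretion and for mucous cell growth when it is in excess, as in Ménétrier disease.

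Of the 10 members, 9 did not pass the test between all tumors and normal tissue, where 31.9% of all genes tested passed. The tumors differed widely from each other. The receptors and Tgfa together spanned a large range over the 12 tumors and moved with the level of epithelial markers. Hbegf was nearly level over the same tumors. Egf was the only member that passed the test in all tumors against normal. Its counts were lower there, while its length-scaled level was not, on a scale that also places the median gene higher.

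Total counts ran from 7957165 to 21564972 per library, no libraries were identical, and greater curvature 2 and corpus 1 lay among the normals on the first principal component (46.9% of the variance). Antrum 1 and lesser curvature 1 lay at its far end from the normals, at 140.4 and 150.8, against at most 72.7 in the other tumors. Of the engineered genes, Myc rose in the tumors (log2 fold change 2.13, edgeR adjusted p = 0.0158, but 0.0754 without normal 3), and Rb1, Trp53 and Pou2f3 did not pass (log2 fold changes of -0.22, 0.31 and -1.20), although gene-level counts do not test recombination. Defining markers of stomach were present. Summed over 4 parietal cell genes, the tumors held 14.5 to 6396.9 CPM (counts per 1e+06 counts of the scaled library) and the normals 3949.8 to 7901.3 CPM, with 11 of 12 tumors below all normals. Over 6 pit and neck mucous cell genes, the tumors held 132 to 89475 CPM and the normals 101510 to 108790 CPM, with 12 of 12 tumors below.

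Promoter sequences are shown for the genes on which the results below turn: Egf, which has 2 start sites in RefSeq, Tgfa and Areg, for their shares of the ligands, and Egfr, for its place beside Tgfa. Each is the 250 bases before the start on the gene's own strand, from RefSeq on GRCm38.p6. Capitals mark a motif found on either strand. A GC box, the site of Sp1-like factors, was searched as GGGCGG. An E-box, bound by Myc and its partners, was searched as CACGTG. An AP-1 site, bound by Fos and Jun proteins, was searched as TGANTCA, and a TATA box as TATAAA, and no matches overlapped in these windows. The first Egf window is chr3:129755323-129755572 and the second chr3:129725087-129725336, both on the minus strand. The Tgfa window is chr6:86194972-86195221, the Areg window chr5:91139349-91139598 and the Egfr window chr11:16751953-16752202, all on the plus strand.
Egf, first start: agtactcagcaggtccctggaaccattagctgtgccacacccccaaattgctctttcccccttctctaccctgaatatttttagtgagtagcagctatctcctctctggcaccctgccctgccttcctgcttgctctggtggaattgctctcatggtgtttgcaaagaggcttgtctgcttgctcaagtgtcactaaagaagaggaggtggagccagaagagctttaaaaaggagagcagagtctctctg
Egf, second start: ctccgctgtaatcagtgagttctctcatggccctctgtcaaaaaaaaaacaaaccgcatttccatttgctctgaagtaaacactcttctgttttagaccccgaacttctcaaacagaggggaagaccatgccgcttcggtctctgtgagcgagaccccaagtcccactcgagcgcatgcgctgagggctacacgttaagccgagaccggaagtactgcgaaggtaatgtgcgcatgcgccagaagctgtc
Tgfa: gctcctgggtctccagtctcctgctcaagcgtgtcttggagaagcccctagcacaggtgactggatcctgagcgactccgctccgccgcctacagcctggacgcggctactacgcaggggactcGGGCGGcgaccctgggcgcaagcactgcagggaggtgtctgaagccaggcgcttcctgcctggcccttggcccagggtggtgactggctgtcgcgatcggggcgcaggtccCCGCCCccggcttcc
Areg: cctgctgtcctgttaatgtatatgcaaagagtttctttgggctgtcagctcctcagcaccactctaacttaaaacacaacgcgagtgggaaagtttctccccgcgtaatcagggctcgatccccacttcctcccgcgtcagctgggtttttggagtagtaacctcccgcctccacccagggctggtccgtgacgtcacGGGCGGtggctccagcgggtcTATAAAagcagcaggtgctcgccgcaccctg
Egfr: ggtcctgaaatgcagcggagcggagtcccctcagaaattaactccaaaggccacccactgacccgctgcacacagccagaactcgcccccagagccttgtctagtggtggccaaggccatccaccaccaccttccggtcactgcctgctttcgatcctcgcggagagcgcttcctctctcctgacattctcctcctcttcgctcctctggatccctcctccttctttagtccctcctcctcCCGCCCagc
Neither Egf window held any of the 4 motifs. The Tgfa window held 2 GC boxes, the Areg window 1 GC box and 1 TATA box, and the Egfr window 1 GC box. Windows of Erbb2 and Btc, searched in the same way, held none. Among 32851 windows of all genes, 32.7% held a GC box, 6.02% an E-box, 6.75% an AP-1 site and 12.4% a TATA box. The GC content was 69.2% for Tgfa, 66.0% for Erbb2, 60.8% for Egfr, 59.6% for Btc and 57.2% for Areg, against a median of 52.4% over all windows, and 50.4% and 52.0% for the Egf windows.

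Receptors were taken first, beginning with Erbb3 (chromosome 10, 128567523 to 128589652 on GRCm38, minus strand), the receptor that binds neuregulins and signals through PI3 kinase. Erbb3 had 17.0, 189.8 and 144 CPM in the antrum tumors, 63.4, 213.6 and 62.2 CPM in the greater curvature tumors, 4.32, 106 and 50.3 CPM in the lesser curvature tumors, 268, 125 and 143 CPM in the corpus tumors, and 176, 279.6 and 259 CPM in the normals, each in the order of replicates 1, 2 and 3. Antrum 1 and lesser curvature 1 stood far below all other libraries, and 9 of 12 tumors lay below all normals, and greater curvature 2 and corpus 1 were inside the range of the normals. Over the pooled tumors the log2 fold change was -1.17 (SE 0.70, edgeR adjusted p = 0.201). In the lesser curvature tumors, all 3 of which lay below all normals, it was -2.16 (SE 0.99, adjusted p = 0.105). With a block for the replicate numbers it passed narrowly, at -2.61 (adjusted p = 0.04998), though what a number shares is not stated. Without the block, 0 of 15 fits that each left out 1 library called it.

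Erbb2 (chromosome 11, 98412470 to 98437716, plus strand), the partner receptor known as HER2, had 2.46, 79.2 and 60.8 CPM in the antrum tumors, 19.1, 90.6 and 25.5 CPM in the greater curvature tumors, 3.78, 39.1 and 24.6 CPM in the lesser curvature tumors, 99.2, 46.6 and 49.4 CPM in the corpus tumors, and 69.0, 105 and 121 CPM in the normals. Its pattern followed that of Erbb3, with the same lowest pair of tumors and 9 of 12 tumors below all normals. The pooled log2 fold change was -1.23 (SE 0.73, adjusted p = 0.200), and that of the lesser curvature tumors was -2.13 (SE 1.04, adjusted p = 0.122). No tumor of any site exceeded the highest normal.

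Egfr (chromosome 11, 16752203 to 16918158, plus strand), the receptor of EGF itself, had 17.8, 127 and 99.3 CPM in the antrum tumors, 51.1, 107 and 38.1 CPM in the greater curvature tumors, 6.83, 67.9 and 25.9 CPM in the lesser curvature tumors, 116.7, 71.2 and 62.7 CPM in the corpus tumors, and 30.7, 132 and 102 CPM in the normals. The groups overlapped, with normal 1 among the lower tumors and no tumor above normal 2. The pooled log2 fold change was -0.51 (SE 0.63, adjusted p = 0.536). The antisense gene Egfros overlaps Egfr, and whether counting used strand is not stated. On the length-scaled TPM (transcripts per 1e+06 transcripts), which allows genes to be set beside each other, Erbb3 was the highest of the 3 receptors in 11 of 12 tumors and in 3 of 3 normals. The receptors summed to 4.07 to 90.1 TPM in tumors and to 45.8 to 84.8 TPM in normals. This scale places the median gene higher in tumors, and in CPM no tumor exceeded the highest normal for any of the 3 receptors.

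**Figure D1:**
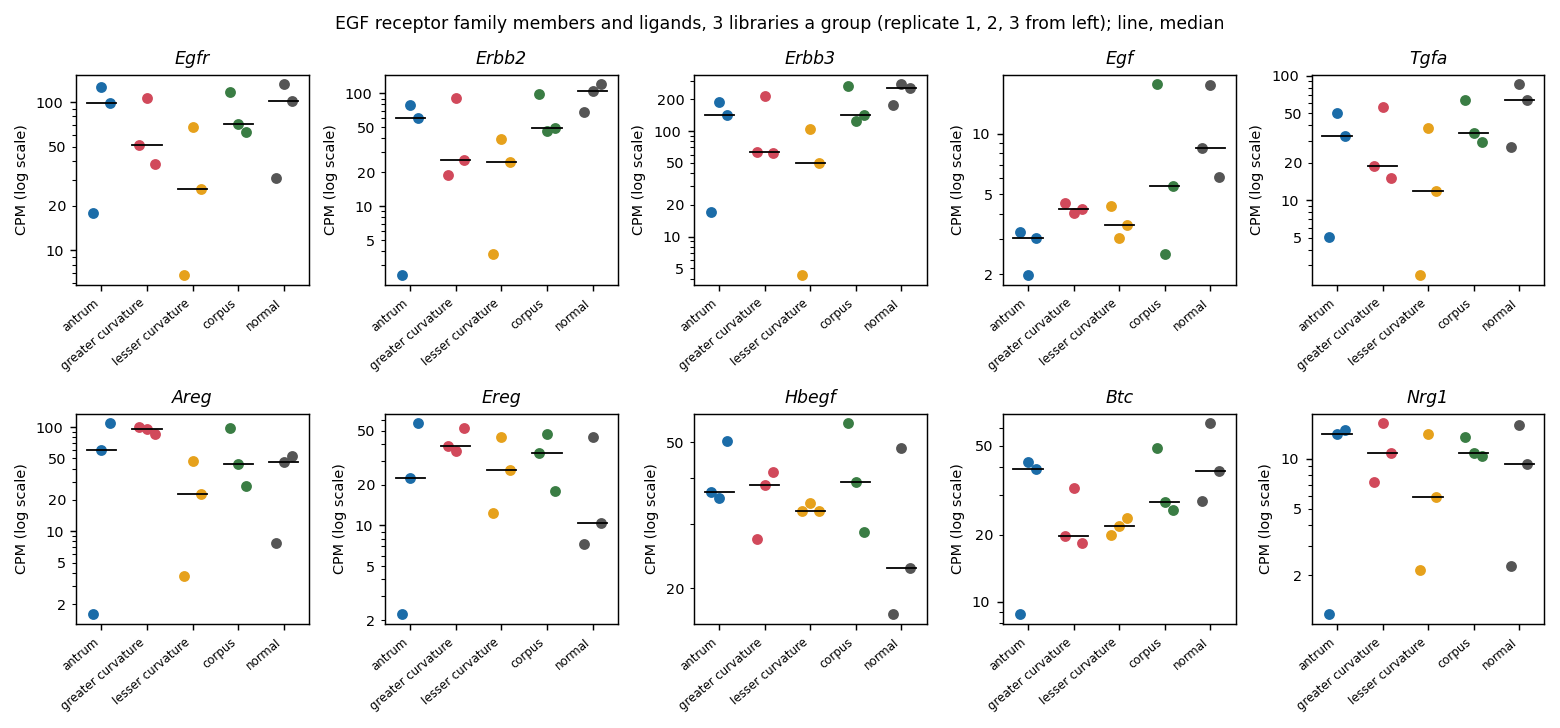
CPM of the 10 members on log axes, with 3 tumors of each of 4 sites and then 3 normals in each panel, 1 point a library and a line at the group median. Antrum 1 and lesser curvature 1, the left points of their groups, are lowest for Erbb2, Erbb3 and Tgfa, while Hbegf stays between 27.2 and 56.3 CPM in all 12 tumors.

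Ligands of Egfr followed. Tgfa (chromosome 6, 86195223 to 86275719, plus strand) had 5.04, 49.9 and 32.6 CPM in the antrum tumors, 18.7, 55.8 and 15.2 CPM in the greater curvature tumors, 2.51, 37.6 and 11.8 CPM in the lesser curvature tumors, 63.4, 34.9 and 29.1 CPM in the corpus tumors, and 26.4, 85.4 and 63.7 CPM in the normals. Antrum 1 and lesser curvature 1 were again lowest, and 5 of 12 tumors lay below all normals. The pooled log2 fold change was -1.05 (SE 0.68, adjusted p = 0.237).

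Areg (chromosome 5, 91139599 to 91148432, plus strand), amphiregulin, had 1.60, 60.5 and 109 CPM in the antrum tumors, 100.2, 95.9 and 86.2 CPM in the greater curvature tumors, 3.73, 47.8 and 22.6 CPM in the lesser curvature tumors, 98.7, 44.4 and 27.1 CPM in the corpus tumors, and 7.79, 46.8 and 52.8 CPM in the normals. All 3 greater curvature tumors lay above all normals, and 6 of 12 tumors in all did, but antrum 1 and lesser curvature 1 lay below them. The pooled log2 fold change was 0.55 (SE 0.92, adjusted p = 0.653), and that of the greater curvature tumors was 1.40 (SE 1.14, adjusted p = 0.395). Ereg (chromosome 5, 91074622 to 91093646), epiregulin, ran from 2.21 through a median of 34.7 to 56.5 CPM in the tumors, against 7.35, 44.8 and 10.5 CPM in the normals. Normal 2 was high and the others low, so the groups overlapped, and the pooled log2 fold change was 0.61 (SE 0.75, adjusted p = 0.533). Normal 2 also stood apart in squamous epithelium markers, with 4867 CPM summed over 9 genes, against 2.13 and 1.76 CPM in normals 1 and 3. The tumors held 0.430 to 1781 CPM of them, the most in lesser curvature 2. Their part in the member levels of normal 2 was not tested.

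Hbegf (chromosome 18, 36504927 to 36515805, minus strand), the heparin-binding ligand, had 36.7, 35.3 and 50.3 CPM in the antrum tumors, 27.2, 38.2 and 41.4 CPM in the greater curvature tumors, 32.5, 34.2 and 32.4 CPM in the lesser curvature tumors, 56.3, 38.9 and 28.5 CPM in the corpus tumors, and 17.0, 48.3 and 22.7 CPM in the normals. All 12 tumors were above normals 1 and 3, and normal 2 was above all but 2 of the tumors. The pooled log2 fold change was 0.36 (SE 0.29, adjusted p = 0.341). On TPM the tumors averaged 23.8 ± 4.11 (SD, n = 12) and the normals 12.5 ± 7.11 (SD, n = 3). With limma on log2(TPM + 1) Hbegf passed (log2 fold change 0.99, limma adjusted p = 0.00827). On that scale genes moved up by a median of 0.51 against the counts, and 37.3% of genes were called higher and 3.58% lower.

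Btc (chromosome 5, 91357261 to 91402994, minus strand), betacellulin, ran from 8.79 through a median of 24.8 to 48.8 CPM in the tumors, against 28.2, 63.1 and 38.4 CPM in the normals. It lay below all normals in 8 of 12 tumors, including all 3 of the lesser curvature (pooled log2 fold change -0.68, SE 0.38, adjusted p = 0.170). Nrg1 (chromosome 8, 31814551 to 32884029, minus strand), a neuregulin that binds Erbb3, ran from 1.17 through a median of 10.9 to 16.3 CPM in the tumors, against 2.28, 16.0 and 9.25 CPM in the normals. Its groups overlapped almost wholly (log2 fold change 0.12, SE 0.69, adjusted p = 0.907). Areg, Ereg and Btc, with the ligand gene Epgn, are the 4 protein-coding genes within 375531 bases of chromosome 5 (91027464 to 91402994).

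**Figure D2:**
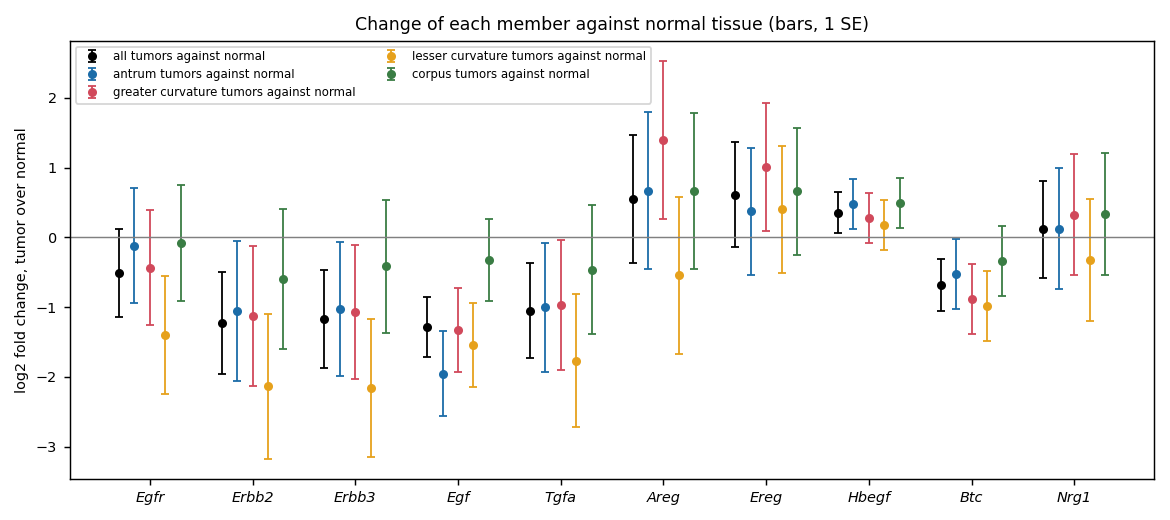
Log2 fold change of each member with 1 SE, for all tumors and for tumors of each site, against normal. The bars are long beside the changes, and the lowest values for the receptors are those of the lesser curvature tumors (-2.16 for Erbb3).

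Egf (chromosome 3, 129677565 to 129755316, minus strand), the founding ligand, was covered by few counts, with 27 to 224 in the tumors and 80 to 200 in the normals. It had 3.26, 1.98 and 3.03 CPM in the antrum tumors, 4.53, 4.03 and 4.24 CPM in the greater curvature tumors, 4.37, 3.02 and 3.53 CPM in the lesser curvature tumors, 17.7, 2.52 and 5.51 CPM in the corpus tumors, and 8.52, 17.4 and 6.12 CPM in the normals. The exception among the tumors was corpus 1, and the other 11 of 12 lay below all normals. In all tumors Egf fell, with a log2 fold change of -1.29 (SE 0.43) and an edgeR adjusted p of 0.0397. The call was kept in 5 of 15 fits that each left out 1 library, with an adjusted p from 0.00564 without corpus 1 to 0.294 without normal 2. It was lost without antrum 2 or 3, greater curvature 1 or 3, any lesser curvature tumor, corpus 3, normal 1 or normal 2. Without normal 2 the log2 fold change was -0.74.

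On TPM, Egf had 2.35, 1.74 and 1.95 in the antrum tumors, 2.73, 1.76 and 3.17 in the greater curvature tumors, 2.74, 2.88 and 2.79 in the lesser curvature tumors, 4.57, 1.26 and 2.65 in the corpus tumors, and 2.36, 3.73 and 1.47 in the normals. The groups overlapped, and limma on log2(TPM + 1) gave a fold change of 0.03 (adjusted p = 0.941). CPM and TPM differ by the transcript length that the quantification assigned to the gene in each library, and by the scaling of each library. With limma on log2(TPM + 1) the median gene stood at 0.43, and the median shift of a gene from the counts was 0.51. The transcript length was worked back from the ratio of counts to TPM. For Egf the log2 ratio of its mean in tumors to its mean in normals was -0.72. This length was 1640 to 4178 bases in the tumors, with a median of 2334, and 3550, 4694 and 4212 bases in normals 1, 2 and 3. It was below all normals in 11 of 12 tumors, and corpus 1, at 4178 bases, was again the exception. Egfr went the other way, with 7490.5 to 9257 bases in tumors against 7107 to 7589 bases in normals, and 11 of 12 tumors above all normals. Areg and Ereg, which have 1 annotated transcript each, varied little (1082.5 to 1117 and 4179 to 4271 bases over all libraries).

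GENCODE M21 lists 9 transcripts of Egf, 3 of them protein-coding. The full-length form has 4761 bases and begins near the first RefSeq start. The shorter coding forms have 3346 and 3211 bases and begin near the second, 30236 bases downstream, the place whose window is printed above as the second start. The other 6 transcripts are not annotated as coding and run from 478 to 4389 bases. Gene-level values cannot say which of them supplied the counts. The antisense genes Gm42697, Gm42650 and 6330410L21Rik overlap Egf, and each lies upstream of the second start.

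**Figure D3:**
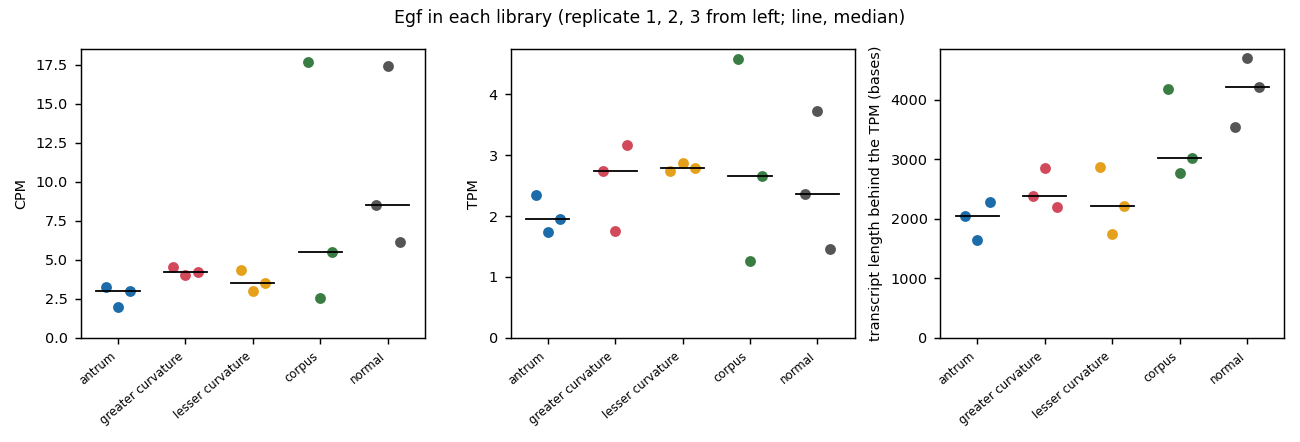
Egf in 3 panels with linear axes from 0: CPM, TPM and the transcript length in bases, for 12 tumors by site and 3 normals. In CPM and in length 11 of 12 tumors lie below all normals and corpus 1 does not, while in TPM the groups overlap.

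As a group, 1 of 10 members was called in all tumors against normal, Egf, where 31.9% of all genes tested were called by edgeR at an adjusted p under 0.05 (16.2% as higher, 15.7% as lower). DESeq2 also called 1 member, where it called 41.4% of genes. The median log2 fold change of the members was -0.59, beside -0.04 over all genes tested, with 4 members above 0 and 6 below. In the antrum tumors edgeR called 0 members where 14.7% of genes were called, with 1 member and 34.5% of genes at an unadjusted p under 0.05. DESeq2 called 1 there, Egf at -1.97, where it called 27.8% of genes. In the greater curvature tumors edgeR called 0 where 9.26% of genes were called, with 1 member and 32.3% of genes at an unadjusted p under 0.05, and DESeq2 called 0 members and 23.8% of genes. In the lesser curvature tumors edgeR called 0 where 33.6% of genes were called, with 1 member and 47.7% of genes at an unadjusted p under 0.05, and the median of the members was -1.19 with 8 below 0. DESeq2 called 2 there, where it called 45.5% of genes. They were Erbb3, at -2.17 (DESeq2 adjusted p = 0.04098), and Egf, at -1.54. In the corpus tumors edgeR called 0 where 3.54% of genes were called, with 0 members and 24% of genes at an unadjusted p under 0.05, and DESeq2 called 0 members and 13.8% of genes. These comparisons share the 3 normals. Among the 4 tumor sites edgeR called 0 members and 0% of all genes, with 947 genes (5.84%) but 0 members at an unadjusted p under 0.05, and DESeq2 called 164 genes (1.02%) and 0 members. The order of the sites in any member was therefore not distinguishable from the spread of the tumors.

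That spread was wide for most members and narrow for Hbegf. The SD of log2 CPM over the 12 tumors was 1.94 for Areg, 1.70 for Erbb3, 1.69 for Erbb2, 1.41 for Tgfa, 1.27 for Ereg, 1.26 for Egfr, 1.16 for Nrg1, 0.77 for Egf, 0.66 for Btc and 0.30 for Hbegf, beside a median of 0.50 over all genes tested. The SD of Areg lay at the 95.9th percentile of all genes and that of Hbegf at the 26.9th. In the 3 normals the SD was 1.54 for Areg, 1.41 for Nrg1, 1.37 for Ereg, 1.12 for Egfr and 0.88 for Tgfa. It was 0.78 for Hbegf, 0.76 for Egf, 0.58 for Btc, 0.42 for Erbb2 and 0.36 for Erbb3, beside a median of 0.36 over all genes. Ereg, Nrg1 and Hbegf thus spread more in the normals than in the tumors.

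Relations between members were computed on log2 CPM over the 12 tumors, as 45 pairs, with p from 100000 permutations and adjusted over the pairs. The permutations, here and for the markers below, treated the 12 tumors as exchangeable. What a replicate number shares is not stated, and relations centered on the replicate numbers were not computed. Egfr, Erbb2, Erbb3 and Tgfa formed 6 pairs with Pearson r of 0.917 to 0.983 and Spearman rho of 0.909 to 0.972 (permutation adjusted p from 0.000113 to 0.00045 for r and from 0.000225 to 0.000707 for rho). Without antrum 1 and lesser curvature 1, the 2 libraries farthest from the median, r was 0.886 to 0.973, and after centering on the mean of each site 0.948 to 0.997. The share of pairs of all genes with such r was not computed. Erbb3 and Areg had r = 0.816 and rho = 0.650 (permutation adjusted p = 0.0135 and 0.0696), and without those 2 libraries r = 0.327, so that relation rests on them. Areg and Ereg had r = 0.899 and rho = 0.699 (permutation adjusted p = 0.0018 and 0.0419), with r = 0.594 without them. Hbegf had r of 0.253 to 0.461 with the other 9 members and rho of -0.161 to 0.510 (permutation adjusted p from 0.203 to 0.495 for r and from 0.185 to 0.700 for rho). Egf had r of 0.0539 to 0.366 and rho of -0.280 to 0.126 with the other 9 members (permutation adjusted p from 0.322 to 0.833 for r and from 0.475 to 0.991 for rho). Without greater curvature 2 and corpus 1, r was -0.473 to 0.243 for Hbegf and -0.473 to -0.0848 for Egf.

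The receptors and Tgfa also moved with the level of epithelial markers. Summed CPM of 5 pan-epithelial markers (Epcam, Cdh1, Krt8, Krt18 and Krt19) was 158 to 10604 in the tumors and 3797.5 to 11848 in the normals, and 5 of 12 tumors were below all normals. Antrum 1, at 219 CPM, and lesser curvature 1, at 158 CPM, held the least, none of the markers was at 0 in all libraries, and none passed the test. Over the 12 tumors the summed level had r = 0.985 and rho = 0.979 with Erbb2, r = 0.976 and rho = 0.986 with Erbb3, r = 0.979 and rho = 0.944 with Tgfa and r = 0.962 and rho = 0.965 with Egfr. The permutation adjusted p over 30 relations was 7.5e-05 for each r and 0.0001 to 0.000225 for rho, from an unadjusted 1e-05 for r that is the smallest the permutations can give. Without antrum 1 and lesser curvature 1, r was 0.966, 0.983, 0.961 and 0.964 in the same order. The share of all genes with such r to the markers was not computed. Nrg1 had r = 0.957 and rho = 0.818 (permutation adjusted p = 0.00024 and 0.00875), and Btc r = 0.802 and rho = 0.874 (permutation adjusted p = 0.0028 and 0.0021).

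For other members the relation was weaker or rested on that pair of libraries. Areg had r = 0.898 and rho = 0.636 (permutation adjusted p = 0.00866 and 0.102) and, without them, r = 0.444. Ereg had r = 0.733 and rho = 0.357 (permutation adjusted p = 0.0529 and 0.480) and, without them, r = -0.02. Hbegf had r = 0.373 and rho = 0.566 (permutation adjusted p = 0.464 and 0.138). Its r was 0.596 without antrum 1 and lesser curvature 1, and 0.208 without greater curvature 2 and corpus 1. Egf had r = 0.130 and rho = -0.084 (permutation adjusted p = 0.786 and 0.924). In bulk tissue, fewer cells of a type and less RNA per cell cannot be told apart. The part of the epithelial markers in the member differences was not tested. Summed neuroendocrine markers, 214 to 5337 CPM in the tumors and 242 to 1146 CPM in the normals, had r from -0.50 to -0.31 and rho from -0.70 to -0.58 with the 3 receptors (permutation adjusted p from 0.271 to 0.464 for r and from 0.0548 to 0.130 for rho). Of the members, Btc had the most negative relation with them (r = -0.644, rho = -0.713, permutation adjusted p = 0.0757 and 0.0514), which did not pass.

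**Figure D4:**
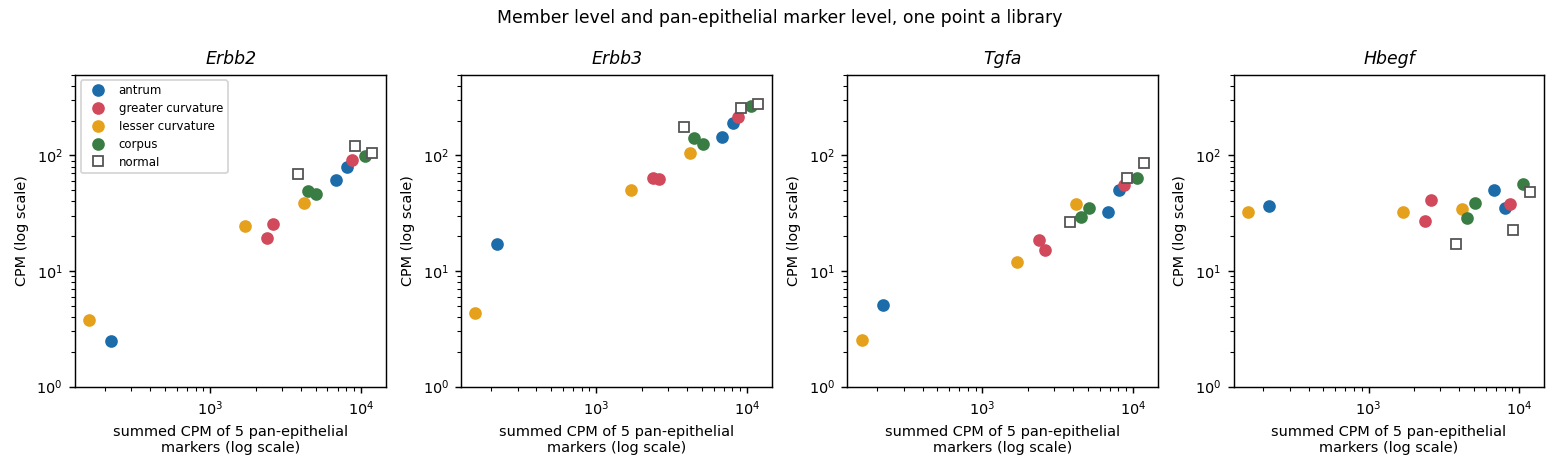
CPM of Erbb2, Erbb3, Tgfa and Hbegf against the summed CPM of 5 pan-epithelial markers, both on log axes, with filled circles for tumors by site and open squares for normals. Erbb2, Erbb3 and Tgfa climb with the markers (r of 0.976 to 0.985 over 12 tumors). Hbegf stays nearly level (r = 0.373, and 0.596 without antrum 1 and lesser curvature 1).

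Set against the epithelial level of the same library, the order of tumors and normals changed for several ligands. Per 100 CPM of the 5 pan-epithelial markers, Areg was 0.606 to 4.23 CPM in the tumors, with a median of 1.12, and 0.205 to 0.581 CPM in the normals, so all 12 tumors lay above all normals. Nrg1 and Egfr lay above all normals in 11 of 12 tumors, and Ereg and Hbegf in 10 of 12. Erbb3 was 2.12 to 7.75 CPM in the tumors and 2.36 to 4.64 CPM in the normals, with 1 tumor above and 2 below all normals. Erbb2 was 0.805 to 2.40 CPM in the tumors and 0.886 to 1.82 CPM in the normals, with 1 above and 1 below. Tgfa was 0.481 to 2.30 CPM in the tumors and 0.696 to 0.721 CPM in the normals, with 4 above and 7 below. Egf had a median of 0.143 CPM in the tumors and 0.147 CPM in the normals, with 2 above and 4 below, and Btc had a median of 0.577 CPM in the tumors and 0.532 CPM in the normals, with 4 above and 1 below. The ratio is given as a description, with no test, and the share of all genes above all normals in it was not computed. Its denominator was 158 to 10604 CPM in the tumors and 3797.5 to 11848 CPM in the normals. A gene that did not fall with the markers is therefore raised in it. Hbegf was highest in lesser curvature 1 and antrum 1 (20.6 and 16.8 CPM), the tumors with the lowest marker level.

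The make-up of the ligands differed between libraries as well. The 7 ligands summed to 35.7 to 234.5 TPM in the tumors and to 34.3 to 123.8 TPM in the normals, on a scale that places the median gene higher in tumors. Areg was the highest ligand in 10 of 12 tumors and in 2 of 3 normals, at a median share of 49.7% in tumors and 33.9% in normals. In antrum 1 and lesser curvature 1 Hbegf was highest instead, at 65.1% and 46.1%, and Areg was 5.96% and 11.1%. In normal 1 Btc was highest, at 28.6%. Tgfa made up 1.81% to 10.5% in the tumors, with a median of 6.84%, and 16.6%, 15.06% and 15.04% in normals 1, 2 and 3. All 12 tumors lay below all normals in this share, which was picked out after the values were seen and is given as a description.

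**Figure D5:**
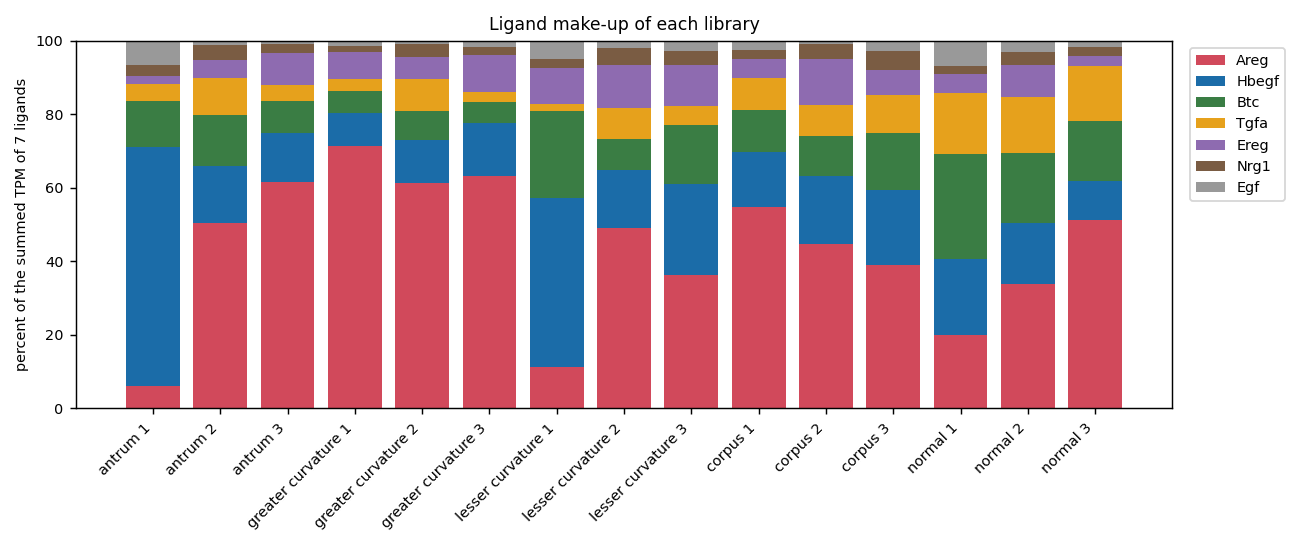
Share of each of 7 ligands in the summed TPM of all 7, as stacked bars from 0 to 100%, 12 tumors and then 3 normals. Areg is the largest band in 10 of 12 tumors, Hbegf in antrum 1 and lesser curvature 1, and the Tgfa band is thinner in all tumors (at most 10.5%) than in the normals (at least 15.04%).

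The remaining ErbB genes and the machinery around the receptors were described from 5 lists. Of the other ErbB receptors and ligands, 4 of 5 were tested, and 0 were called higher and 1 lower, where 16.2% of all genes were called higher and 15.7% lower. Nrg4, a neuregulin for Erbb4, had 0.316 to 2.20 CPM in the tumors against 11.2, 0.698 and 3.52 CPM in the normals and fell (log2 fold change -2.57, SE 0.56, edgeR adjusted p of 0.00733), with 5 of 12 tumors below all normals. The call rested on normal 1, without which the log2 fold change was -1.29 (adjusted p = 0.124). On TPM it was -0.75 and did not pass (limma adjusted p = 0.148). Erbb4, the fourth receptor, was at 0 to 20.6 CPM in the tumors and at 2.42, 0 and 0 CPM in the normals (log2 fold change 1.03, SE 1.68, adjusted p = 0.642). Epgn, epigen, had 0.123 to 3.69 CPM in the tumors and 0.294, 1.48 and 0.0765 CPM in the normals, with an adjusted p of 0.881. The median of the list was 0.39, beside -0.04 over all genes.

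Of 9 genes of ligand shedding, 2 were higher, 0 lower and 7 not called, beside 16.2% higher and 15.7% lower over all genes. Adam8, a protease of myeloid and tumor cells, had 11.8 to 27.9 CPM in the tumors against 4.41, 5.84 and 2.22 CPM in the normals, with all 12 tumors above all normals (log2 fold change 2.11, SE 0.32, adjusted p = 0.00208). Adam12, a protease of stromal cells known to cut the Hbegf precursor, had 3.87 to 32.2 CPM in the tumors against 1.69, 1.31 and 0.688 CPM in the normals, again with all 12 above (log2 fold change 2.96, SE 0.58, adjusted p = 0.00506). Summed fibroblast markers were 618 to 6631 CPM in the tumors and 627 to 934 CPM in the normals, higher than all normals in 9 of 12 tumors, and macrophage markers 59.5 to 135.5 CPM against 53.7 to 60.7 CPM, higher in 11 of 12. Of these lists 1 of 5 and 2 of 4 genes rose, none was at 0 in all libraries, and their part in the rise of the proteases was not tested. Adam17, the main sheddase of Tgfa and Areg, averaged 61.5 ± 16.5 CPM in tumors (SD, n = 12) and 57.3 ± 13.3 CPM in normals (SD, n = 3), a log2 difference of 0.10 (adjusted p = 0.787). Adam10, the sheddase of Egf and Btc, had a log2 difference of -0.26 (adjusted p = 0.508). The median of the list was -0.21. Without greater curvature 2 and corpus 1, Adam9 and Adam15 also passed, as lower (log2 fold changes of -0.78 and -0.70). These 2 tumors lay among the normals on the first principal component, and without them 3648 genes were called lower, against 2548 with them.

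Of 10 genes of receptor restraint and turnover, 1 was higher, 0 lower and 9 not called, beside the same 16.2% and 15.7%. Rnf41, the ubiquitin ligase that degrades Erbb3, averaged 29.0 ± 3.52 CPM in tumors (SD, n = 12) and 21.6 ± 1.79 CPM in normals (SD, n = 3), and 11 of 12 tumors lay above all normals (log2 fold change 0.42, SE 0.14, adjusted p = 0.0378). The call held in 6 of 15 fits that left out 1 library, and without normal 3 the adjusted p was 0.146. Errfi1, an inhibitor of Egfr that it induces itself, averaged 64.7 ± 36.2 CPM in tumors and 95.8 ± 6.70 CPM in normals (log2 fold change -0.60, adjusted p = 0.277). The median of the list was -0.25. With limma on log2(TPM + 1), 5 of the 10 were called higher, where 37.3% of all genes were. Without greater curvature 2 and corpus 1, Cblb and Lrig3 passed as lower (log2 fold changes of -0.47 and -0.72). Over all genes, 3648 were called lower without these tumors, against 2548 with them.

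Of 23 genes of the signal relay, 0 were higher, 4 lower and 19 not called, beside 16.2% higher and 15.7% lower over all genes, so the share called lower was near that background. The median was -0.09, beside -0.04 over all genes. Pik3r1, the regulatory subunit of PI3 kinase, had 31.4 to 138 CPM in the tumors against 309.7, 170.4 and 237 CPM in the normals, with all 12 tumors below all normals (log2 fold change -1.58, SE 0.32, adjusted p = 0.00586). Gab1, the docking adaptor for PI3 kinase, had 5.53 to 23.0 CPM in the tumors against 42.98, 25.2 and 29.0 CPM in the normals, also with all 12 below (log2 fold change -1.26, SE 0.31, adjusted p = 0.0111). Map2k2, a kinase of the ERK pathway, fell too (log2 fold change -0.42, adjusted p = 0.0159). Without normal 1, Gab1 no longer passed (adjusted p = 0.0694), nor did Map2k2 without normal 1 or normal 2 (at most 0.0728). Of these 3 genes, Pik3r1 alone was also lower past the threshold with limma on log2(TPM + 1) (log2 fold change -0.99, adjusted p = 0.0281), and Map2k2 had the other sign there (0.19, adjusted p = 0.206). That scale called 9 relay genes higher and 1 lower, where the counts called 0 and 4, and it called 37.3% of all genes higher and 3.58% lower. Summed smooth muscle markers, 104 to 830 CPM in the tumors and 3266 to 4736 CPM in the normals, fell in the same comparison in 5 of 5 genes, with none at 0 in all libraries. Their part in the falls of the relay genes was not tested.

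Of 16 genes of the ERK response and feedback, 0 were higher, 1 lower and 15 not called, beside 16.2% higher and 15.7% lower over all genes, and the median was -0.30, beside -0.04. Etv5, a transcription factor induced by ERK, had 3.05 to 26.2 CPM in the tumors against 28.5, 22.9 and 36.1 CPM in the normals and fell (log2 fold change -1.56, SE 0.47, adjusted p = 0.0264), with 11 of 12 tumors below all normals. Leaving out any 1 of the normals ended the call (adjusted p up to 0.113). Dusp6, the phosphatase that ERK induces against itself, averaged 26.2 ± 13.98 CPM in tumors and 42.9 ± 9.32 CPM in normals (log2 fold change -0.77, SE 0.42, adjusted p = 0.165). On TPM the change of Etv5 was -0.97 and did not pass (adjusted p = 0.0759). Without greater curvature 2 and corpus 1, Fos also passed as lower (-1.42, adjusted p = 0.0464). Over all genes, 3648 were called lower without these tumors, against 2548 with them.

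Genes most like a member over the 12 tumors were looked up for the receptor and the ligand with the smallest p against normal, among 15081 genes. Those most like Erbb2 were Tjp3, a tight junction scaffold (r = 0.998), Scnn1a, a subunit of the epithelial sodium channel (r = 0.996), and Lrrk1, a kinase (r = 0.996). Without antrum 1 and lesser curvature 1 these were 0.994, 0.983 and 0.991. Those most like Egf were Tfdp2 (r = 0.86), a partner of the E2F factors, Olfr1348 (r = 0.856), an olfactory receptor gene, and Tom1 (r = 0.83), and without greater curvature 2 and corpus 1 they were 0.734, 0.547 and 0.778. These are descriptions of a search and carry no p.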

How the data were processed

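Total RNA was sequenced as paired reads in 15 samples, per the labels' protocols. Per the submitters' processing notes bcl2fastq 2.19, kallisto 0.44.0, sleuth, DESeq2 and GRCm38.p6 were named, without roles, and no annotation is named in the sources used here. The authors' deposited counts are estimated counts, rounded to whole numbers, for each gene. A second deposited table, named for FPKM, holds columns that each sum to 1e+06, so it was read as TPM made by the authors, where the design had assumed FPKM.

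The model was fitted in edgeR 4.0.16 under R 4.3.3 (filterByExpr with a minimum count of 10, TMM, 1 robust quasi-likelihood model of 5 groups), with Benjamini-Hochberg adjustment over all 16224 genes and a threshold of 0.05. An adjusted p without a tool is edgeR's, and SE is that of the log2 fold change. Other fits used DESeq2 1.42.0 and limma 3.58.1 on log2(TPM + 1) for genes at a TPM of 1 or more in 3 samples. At the depth of these libraries 1 count stands for 0.0478 to 0.112 CPM, which covers counting error only. Log2 CPM used a prior count of 2. Transcript length was the ratio of counts to TPM, scaled on genes with 1 transcript. Coordinates are from GENCODE M21.

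Members, gene lists and tests were chosen with earlier results of these data known. All 10 members were named whatever their values. Each list gives counts and up to 4 genes with the smallest p, and Adam17, Adam10 and Errfi1, outside this rule, were added for their roles after values were seen. One gene that the rule names is not reported here. Other settings were no filter, DESeq2 size factors, a replicate block, the compared groups only, a 1.5-fold test and each library left out. Promoter windows from RefSeq were searched for 6 of the 10 members. The search left out windows on chromosome 18, where Hbegf lies.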

Additional observations from a re-analysis of the deposited data

How the results depend on the processing

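Every comparison with normal tissue rests on 3 normals, Egf on few counts, and antrum 1, lesser curvature 1, normal 2, greater curvature 2 and corpus 1 each stand apart. Member fold changes against normal were recomputed 1250 times, over members, comparisons and settings that all use the same 15 libraries. Of these 33 passed the threshold and 57 had the other sign. The share of all genes passing over the same fits was not computed, and counts of all genes called are given below. The sign of Egf turned with limma on log2 of TPM plus 1 (0.0271, with and without the filter) and of TPM plus 0.1 (0.0444), and that of Map2k2 did too (0.188 and 0.190). On the TPM scale the median shift of a gene from the counts was 0.50 to 0.54. The share of calls that were higher was 89.7% to 92.4% there, against 50.8% in the counts. On TPM the 1 member called in all tumors was Hbegf (0.99, and 1.05 with a pseudocount of 0.1), not Egf. The cause was not tested.

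For members called: in all tumors (1), 0 without a filter on low counts, 0 against a 1.5-fold change, and 0 to 1 with each library left out. In the antrum (0), 1 with DESeq2 and without greater curvature 2 and corpus 1, which was Egf as lower. Each of the 3 limma fits called 1 there, Hbegf as higher, and with each library left out it was 0 to 1. In the lesser curvature (0), 2 with DESeq2 (Erbb3 and Egf, lower) and 1 with the replicate block (Erbb3, lower). Each limma fit called 1 there (Hbegf, higher), as did the fit without greater curvature 2 and corpus 1 (Egf, lower). With each library left out it was 0 to 2. These are different genes, not 1 call repeated. In the other comparisons the count stayed at 0 in every alternative.

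For all genes called: in all tumors (5176), 1525 against 1.5-fold and 2587 to 6900 with each library left out. In the antrum (2380), 4482 with DESeq2, 902 with only the groups compared, 4047 and 4287 with limma on TPM plus 1 and plus 0.1, 448 against 1.5-fold, 3598 without greater curvature 2 and corpus 1, and 387 to 3297 with each library left out. In the greater curvature (1503), 3851 with DESeq2, 964 without the filter, 4 with only the groups compared, 3153 and 3470 with limma, 219 against 1.5-fold, 4430 without greater curvature 2 and corpus 1, and 1 to 4173 with each library left out. In the lesser curvature (5445), 1752 against 1.5-fold and 2159 to 6403 with each library left out. In the corpus (574), 2235 with DESeq2, 331 without the filter, 301 with only the groups compared, 888 with limma on TPM plus 0.1, 117 with limma without the filter, 12 against 1.5-fold, 1972 without greater curvature 2 and corpus 1, and 0 to 1218 with each library left out. Among the sites (0), 164 with DESeq2, 12 with only the groups compared, 3 with limma, 9 with limma without the filter, and 0 to 16 with each library left out.

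The labels do not say what a replicate number shares. Deviations of same-numbered libraries correlated from -0.566 to 0.693, with a median of 0.168 and 17 of 30 over 0.1. Those of different-numbered libraries correlated from -0.733 to 0.637, with a median of -0.0654 and 20 of 60 over 0.1. Of 15 libraries, 10 correlated best with their own number, a hint from the data only. Whether the numbers pair the samples was not tested. With the replicate block 2896 genes were higher and 2851 lower in all tumors, Egf was at -1.39 (adjusted p = 0.0369), and Erbb3 in the lesser curvature passed at -2.61 (adjusted p = 0.04998).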
